A study of Mus musculus with 5 samples.

Results

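A set of 10 immediate early genes was followed in brain microvascular fragments of hyperglycemic and normoglycemic mice: Fos, Fosb, Jun, Junb, Egr1, Ier2, Atf3, Dusp1, Btg2 and Zfp36. They were chosen by symbol, and each symbol matched 1 Ensembl identifier in the mouse NCBIM37 annotation, giving 10 of the 37982 identifiers. RNA came from 3 wild-type (WT) mice and 2 heterozygous Ins2-AKITA mice, all C57BL6 males between 26 and 38 weeks of age, with 1 library per mouse. Ins2-AKITA mice carry 1 copy of the insulin 2 gene with a point mutation whose product kills pancreatic beta cells, so that hyperglycemia is the consequence of a lesion outside the brain. WT mice were littermates and carried no mutation or treatment. In both genotypes brain tissue was digested with collagenase, pressed through strainers and captured on magnetic beads coated with an antibody to PECAM1. Such fragments can hold endothelial cells with attached pericytes and astrocyte end-feet. Every library had gone through the digestion, with no undigested library to compare. How much of a value was present in the living brain and how much arose during isolation cannot be told apart.

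Immediate early genes are transcribed within minutes of a stimulus without new protein synthesis, because the factors that start them, among them SRF with its ETS partners and CREB, already sit in the cell. Their mRNAs are also short-lived, since many carry AU-rich elements that recruit decay proteins. The group includes subunits of the AP-1 transcription factor, which binds DNA as a dimer of FOS and JUN family proteins, together with proteins that shut the response down. Enzymatic digestion of tissue is a known inducer of these genes in cells of many tissues, brain endothelium and microglia included.

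Promoter windows are shown for 2 genes with lower values in both Ins2-AKITA mice (Zfp36 and Dusp1) and for 2 genes whose genotypes overlapped (Fos and Btg2). Each holds the 250 bases before the RefSeq start of transcription, 5′ to 3′. Capitals mark the CArG box bound by SRF, the cyclic AMP response element TGACGTCA or the TATA sequence TATAAA.
Zfp36 (GRCm38, chr7:28379229-28379478, minus strand): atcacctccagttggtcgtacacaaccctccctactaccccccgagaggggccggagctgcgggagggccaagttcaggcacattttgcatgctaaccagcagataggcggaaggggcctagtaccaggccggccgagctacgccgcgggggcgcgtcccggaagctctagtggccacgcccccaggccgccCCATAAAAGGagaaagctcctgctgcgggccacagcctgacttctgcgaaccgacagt
Dusp1 (GRCm38, chr17:26508473-26508722, minus strand): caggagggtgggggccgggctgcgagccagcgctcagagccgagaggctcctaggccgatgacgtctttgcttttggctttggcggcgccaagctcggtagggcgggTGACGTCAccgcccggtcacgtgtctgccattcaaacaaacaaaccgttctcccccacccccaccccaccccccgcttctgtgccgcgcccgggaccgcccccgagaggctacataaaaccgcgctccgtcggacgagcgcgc
Fos (GRCm38, chr12:85473640-85473889, plus strand): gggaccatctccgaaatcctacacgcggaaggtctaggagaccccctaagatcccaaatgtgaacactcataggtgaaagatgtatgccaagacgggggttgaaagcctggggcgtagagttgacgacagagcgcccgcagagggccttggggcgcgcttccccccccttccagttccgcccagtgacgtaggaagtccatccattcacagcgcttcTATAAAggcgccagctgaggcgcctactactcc
Btg2 (GRCm38, chr1:134079156-134079405, minus strand): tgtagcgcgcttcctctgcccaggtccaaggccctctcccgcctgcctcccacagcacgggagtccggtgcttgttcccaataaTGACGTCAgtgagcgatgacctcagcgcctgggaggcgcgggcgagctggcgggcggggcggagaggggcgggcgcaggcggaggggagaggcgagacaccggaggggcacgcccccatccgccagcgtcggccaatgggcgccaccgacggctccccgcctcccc

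A RefSeq window was held for 8 of the 10 genes. These windows, extended by the 50 bases after the start, were searched on both strands for exact matches to each motif. Variant sites and sites outside the windows were not counted, so a motif not found is not shown to be absent from the gene. The CArG box was found in 1 of the 8, Zfp36, at bases -58 to -49 from the start, against 1.63% of 32851 promoter windows in the genome. The element TGACGTCA was found in 2 of the 8, at -143 to -136 in Dusp1 and at -166 to -159 in Btg2, against 1.79% of all windows. TATAAA was found in Fos at -33 to -28 and in Junb just after the start, against 13.6% of all windows. GCGNGGGCG, the EGR motif, was found in Zfp36, Fosb and Btg2, against 5.55%, and the AP-1 motif TGANTCA in none of the 8, against 7.81%. No found motif overlapped another. Zfp36 and Btg2 thus shared the EGR motif, and Dusp1 and Btg2 shared the cyclic AMP response element. Whether any of these motifs bears on the values was not tested.

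The AU-rich element was looked at next because ZFP36 (tristetraprolin), the product of one of the 10 genes, is an RNA-binding protein that recognises it and promotes decay of the mRNA, its own included. The first TATTTAT of the 3′ UTR, a core of its binding site, is shown in capitals within 25 bases for Zfp36, Dusp1, Fos and Jun.
Zfp36 (NCBIM37, chr7:29161987-29162011, minus strand): tgggcccttTATTTATgacgacttt
Dusp1 (NCBIM37, chr17:26643106-26643130, minus strand): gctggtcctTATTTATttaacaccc
Fos (NCBIM37, chr12:86818055-86818079, plus strand): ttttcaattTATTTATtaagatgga
Jun (NCBIM37, chr4:94715772-94715796, minus strand): gcttgtgcaTATTTATaatagcgtt

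TATTTAT occurred in the 3′ UTR of 7 of the 10 genes, against 25.5% of 9424 other genes whose 3′ UTR had a length in the same range (483 to 2199 nt). Zfp36 and Dusp1 each held 3 copies, Fos held 2, and Jun, Fosb, Atf3 and Btg2 held 1. Junb, Egr1 and Ier2 held none, and Ier2 alone also lacked the shorter ATTTA. The median density of ATTTA was 2.89 per kb in the 10 genes and 1.35 per kb in the other genes.

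Values are FPKM, a count of sequenced fragments scaled to exon length and to library size, with 1 value per gene and mouse as the authors deposited them. Because FPKM keeps whole fragments visible in low values, the number of fragments behind a value could be estimated, and it lay between 1118215 and 2848903 per mouse in all, with WT replicate 3 the deepest. Tests by limma on log2(FPKM + 1) covered the 16286 gene symbols averaging 1 FPKM or more, which include all 10 genes. Protein-coding genes made up between 3.09% and 27.5% of the summed FPKM, so that a common sum would be set mostly by other genes, and values were left as deposited. Endothelial, pericyte and astrocyte markers were detected in every mouse, and so were neuron, oligodendrocyte and microglia markers. Summed FPKM of 8 neuron markers lay between 1598 and 2110, against 443 to 896 for 10 endothelial markers. Camk2a alone gave 849 to 1220 FPKM of the neuron sum. Which cells the immediate early gene values come from was not tested. Limma p-values weigh a genotype difference against the spread between these 5 mice, moderated by the spread of genes of similar level.

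**Figure D1:**
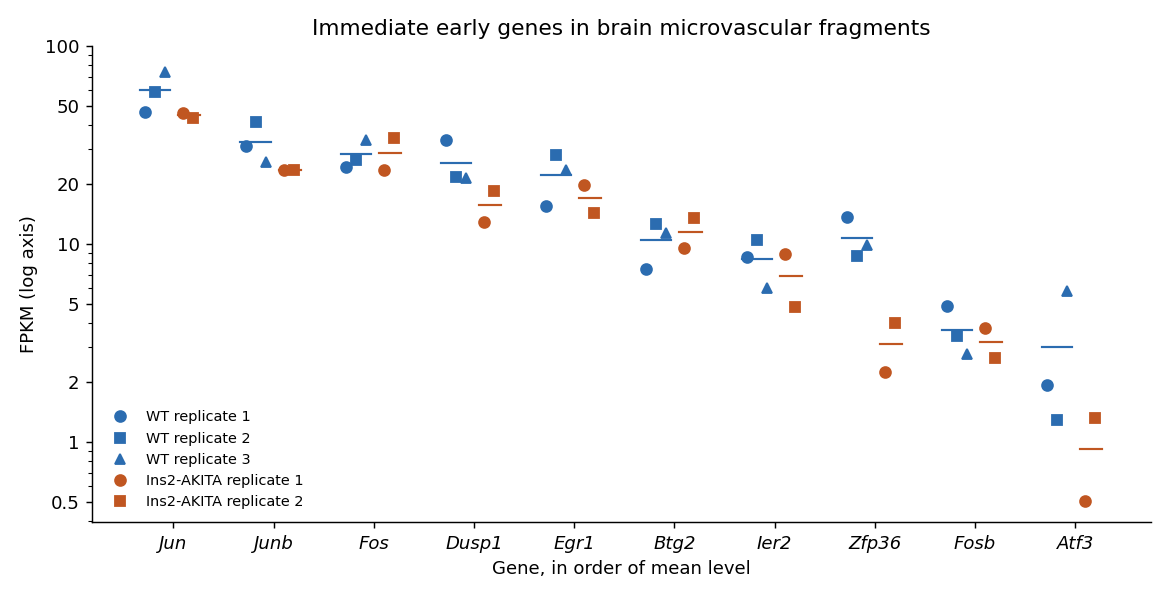
FPKM of the 10 genes (log axis) in each mouse, in order of mean level, with WT in blue and Ins2-AKITA in orange; short lines are the means of 3 WT and 2 Ins2-AKITA mice. Zfp36 has the log2 fold change farthest from 0, with 8.70 to 13.7 FPKM in the WT mice against 2.26 and 3.98 FPKM in those with Ins2-AKITA.

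All 10 genes were detected in all 5 mice, and their levels spanned a wide range. Jun was the highest, with a mean over the 5 mice of 53.7 ± 12.9 FPKM (SD, n = 5), above the mean of 90.1% of the genes tested. It exceeded Junb, the next in order, in 5 of 5 mice without overlap of their ranges. Junb (29.2 ± 7.44 FPKM), Fos (28.6 ± 5.04 FPKM), Dusp1 (21.7 ± 7.57 FPKM) and Egr1 (20.3 ± 5.67 FPKM) followed, and neighbours among these overlapped, so that their order is not fixed by these mice. Egr1 exceeded Btg2 (10.9 ± 2.45 FPKM) in 5 of 5 mice, again without overlap. Below it lay Ier2 (7.75 ± 2.32 FPKM), Zfp36 (7.69 ± 4.602 FPKM), Fosb (3.50 ± 0.89 FPKM) and Atf3 (2.17 ± 2.08 FPKM), each overlapping with its neighbour. As FPKM is a level per length of exon, these are comparisons of level between genes.

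Between genotypes, 8 of the 10 genes had a negative log2 fold change (Ins2-AKITA minus WT), against 53.5% of all genes tested, and 4 of them, Zfp36, Dusp1, Junb and Jun, had both Ins2-AKITA values below all WT values. Of all genes tested, 10.3% had both Ins2-AKITA values below all WT values and 9.24% had both above, a position that none of the 10 genes took. Their median log2 fold change was -0.37, against -0.03 over all genes tested. It was -0.22 without WT replicate 2. With limma and Benjamini-Hochberg adjustment, none of the 10 passed a threshold of 0.05 (0.0246% of all genes tested did), and 1 of the 10, Zfp36, had an unadjusted p under 0.05 (4.46% of all genes tested, 2.93% lower and 1.53% higher). In this bulk RNA, fewer cells of a type and less RNA per cell cannot be told apart.

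**Figure D2:**
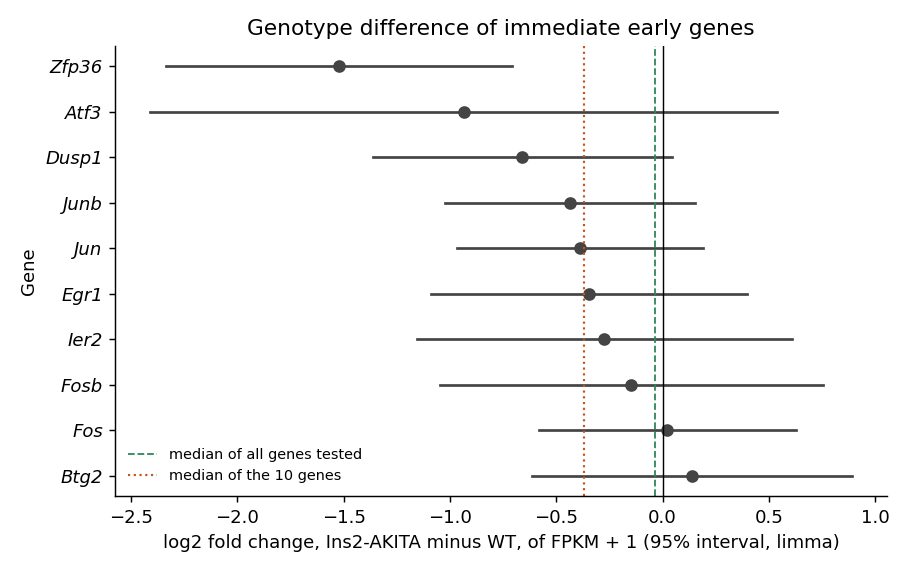
Log2 fold change (Ins2-AKITA minus WT, of FPKM + 1) of each gene on the x axis with its 95% interval from limma; the dashed line is the median of all genes tested and the dotted line the median of the 10 genes. The interval of Zfp36, from -2.33 to -0.71, is the one that does not reach 0, before any adjustment for the number of genes tested.

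Of the 4 AP-1 subunit genes, Jun and Junb had both Ins2-AKITA values below all WT values, and Fos and Fosb did not. Jun (ENSMUSG00000052684, chromosome 4 of NCBIM37 from 94715725 to 94718913, minus strand) encodes the c-JUN subunit. Its FPKM was 46.4, 58.5 and 74.3 in WT mice 1, 2 and 3, compared with 46.1 and 43.1 for Ins2-AKITA mice 1 and 2. Both Ins2-AKITA values were below the lowest WT value, but Ins2-AKITA replicate 1 only by a margin far below the WT spread. Limma gave a log2 fold change of -0.39 (standard error, SE, 0.24, adjusted p = 0.90, exact two-sided permutation p = 0.2), which was -0.22 without WT replicate 3. The 5′ end of Jun overlaps BC042782 on the opposite strand, which had 12.5, 11.6 and 5.54 FPKM in the WT mice against 3.22 and 6.41 FPKM in those with Ins2-AKITA. Whether the authors counted by strand is not given in the sources used here, so reads in the overlap cannot be told apart.

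Junb (ENSMUSG00000052837, chromosome 8 from 87500811 to 87502617, minus strand, 1 exon), whose product also pairs with FOS proteins, stood at 31.4, 41.2 and 26.0 over the WT mice, compared with 23.55 and 23.6 for Ins2-AKITA. The 2 Ins2-AKITA mice were nearly alike, and WT replicate 3 lay close above them. Its log2 fold change came to -0.44 (SE 0.24, limma adjusted p = 0.90), and to -0.27 without WT replicate 2. On the other side of the dimer, Fos (ENSMUSG00000021250, chromosome 12 from 86814840 to 86818223, plus strand) stood at 24.6, 26.7 and 33.7 in the WT mice against 23.7 and 34.2 in those with Ins2-AKITA. The Ins2-AKITA mice took both the lowest and the highest Fos value of the 5. The log2 fold change was 0.02 with a 95% interval from -0.58 to 0.63, which leaves room for a difference in either direction.

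Fosb (ENSMUSG00000003545, chromosome 7 from 19888070 to 19895394, minus strand), which encodes a FOS relative, was near the lower end with 4.86, 3.44 and 2.79 FPKM over the WT mice, compared with 3.77 and 2.65 for Ins2-AKITA. The genotypes overlapped (with a log2 fold change of -0.15, standard error 0.37). An estimated 12 to 28 fragments per mouse lie behind its values. Atf3 (ENSMUSG00000026628, chromosome 1 from 192994175 to 193007219, minus strand), a stress-induced factor of the same leucine zipper class, had 1.95, 1.29 and 5.78 FPKM in the WT mice against 0.50 and 1.33 in those with Ins2-AKITA. Its high value in WT replicate 3 rests on an estimated 29 fragments, and the other 4 mice had between 1 and 4 fragments each, too few for a comparison. Limma gave a log2 fold change of -0.93 (SE 0.61, adjusted p = 0.90), and it was -0.47 without WT replicate 3.

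Egr1 (ENSMUSG00000038418, chromosome 18 from 35020861 to 35024638, plus strand) encodes a zinc finger transcription factor of growth factor and activity responses. Its FPKM was 15.5, 28.01 and 23.7 over the WT mice, compared with 19.9 and 14.4 for Ins2-AKITA. WT replicate 1 lay between the Ins2-AKITA mice, so the genotypes overlapped (with a log2 fold change of -0.35, standard error 0.31). Without Ins2-AKITA replicates 1 and 2 in turn, this value was -0.57 and -0.13, and without WT replicates 1 and 2 in turn it was -0.58 and -0.17. Gm17507, which overlaps the 3′ end of Egr1 on the opposite strand, was listed at 0 in all mice. Ier2 (ENSMUSG00000053560, chromosome 8 from 87185230 to 87186751, minus strand, 1 exon), a nuclear protein induced with the AP-1 genes, had 8.59, 10.5 and 5.96 FPKM in the WT mice against 8.89 and 4.81 in those with Ins2-AKITA. It also overlapped (with a log2 fold change of -0.27, standard error 0.37), with an estimated 8 to 22 fragments per mouse.

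The remaining 3 genes act to end the response. Dusp1 (ENSMUSG00000024190, chromosome 17 from 26642535 to 26645464, minus strand) encodes a phosphatase that inactivates MAP kinases. Its FPKM was 33.6, 21.7 and 21.4 over the WT mice, compared with 12.9 and 18.6 for Ins2-AKITA. Both Ins2-AKITA mice were below all WT mice, and the mean was 1.63-fold lower. The log2 fold change was -0.66 (standard error 0.29, unadjusted p = 0.062 and adjusted p = 0.90 from limma, exact two-sided permutation p = 0.2). Without Ins2-AKITA replicate 1 it was -0.41. Btg2 (ENSMUSG00000020423, chromosome 1 from 135971747 to 135975697, minus strand), an antiproliferative protein that also promotes removal of poly(A) tails, had 7.48, 12.6 and 11.3 FPKM in the WT mice against 9.51 and 13.6 in those with Ins2-AKITA. Ins2-AKITA replicate 2 had the highest value of the 5 mice and WT replicate 1 the lowest, with a log2 fold change of 0.14 (standard error 0.31).

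Among the 10, Zfp36 (ENSMUSG00000044786, chromosome 7 from 29161803 to 29164274, minus strand) had the log2 fold change farthest from 0. Its FPKM was 13.7, 8.70 and 9.86 over the WT mice, compared with 2.26 and 3.98 for Ins2-AKITA. WT mice averaged 10.7 ± 2.60 FPKM (SD, n = 3) and Ins2-AKITA mice 3.12 ± 1.21 FPKM (SD, n = 2). The Ins2-AKITA mean was 3.44-fold lower, a gap larger than the spread within either genotype. The log2 fold change was -1.52 (standard error 0.34, 95% interval -2.33 to -0.71). The unadjusted p of limma was 0.0036, rank 70 of the 16286 genes tested, and the adjusted p was 0.82. The exact two-sided permutation p was 0.1, the smallest that 3 mice against 2 allow over 10 splits.

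Few fragments lie behind this difference. Zfp36 has 1 annotated transcript, and its values came out as 25, 18 and 44 fragments in WT and 4 and 8 fragments in Ins2-AKITA mice, each within 0.14 of a whole number. Exact Poisson intervals (95%), which cover counting error only, ran from 0.62 to 5.80 FPKM in Ins2-AKITA replicate 1 and from 1.72 to 7.84 FPKM in replicate 2. In WT they ran from 8.85 to 20.2, from 5.16 to 13.7 and from 7.17 to 13.2 FPKM. The interval of Ins2-AKITA replicate 2 thus reached into those of WT replicates 2 and 3. That of Ins2-AKITA replicate 1 reached into that of WT replicate 2.

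**Figure D3:**
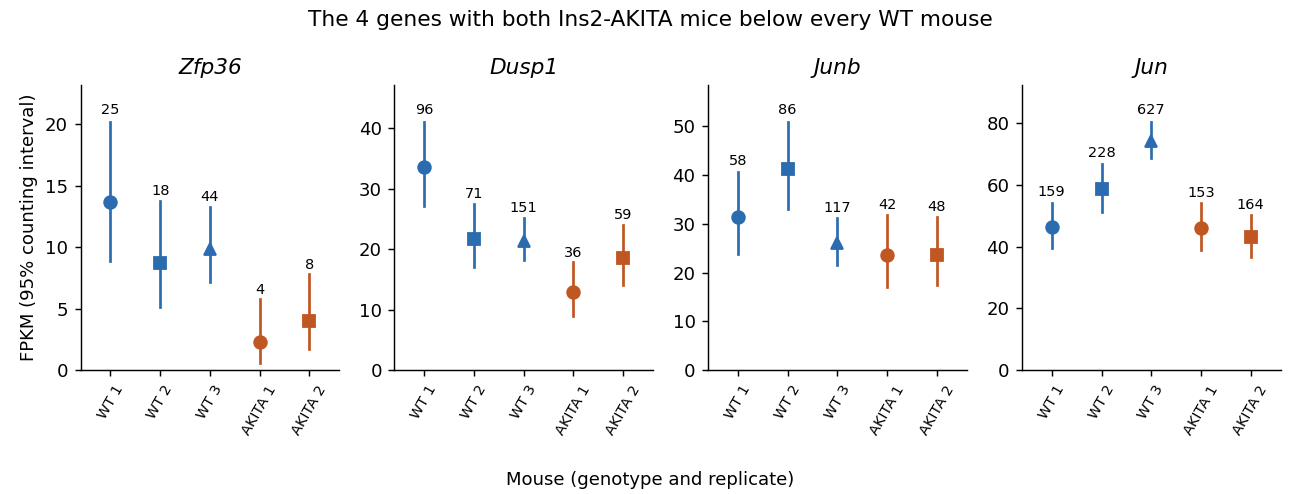
FPKM (y axis, from 0) of Zfp36, Dusp1, Junb and Jun in each mouse (x axis, AKITA standing for Ins2-AKITA) with exact 95% Poisson intervals, and the estimated number of fragments above each bar. Zfp36 rests on 4 and 8 fragments in the Ins2-AKITA mice, whereas Jun rests on 153 or more in every mouse and its Ins2-AKITA intervals include the value of WT replicate 1.

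Ratios between 2 genes within a mouse do not depend on how the library is scaled. They were chosen after the values had been seen. The ratio of Zfp36 to Fos was 0.56, 0.33 and 0.29 in the WT mice against 0.096 and 0.12 in those with Ins2-AKITA. The ratio of Zfp36 to Jun was 0.29, 0.15 and 0.13 over the WT mice, compared with 0.049 and 0.092 for Ins2-AKITA. Because the values of Zfp36 itself did not overlap between genotypes, these ratios are no separate test of its difference. Zfp36 was lower relative to both AP-1 genes in both Ins2-AKITA mice than in any WT mouse. The same held relative to Pecam1, an endothelial marker, with 0.15, 0.096 and 0.15 in the WT mice against 0.036 and 0.068 in those with Ins2-AKITA. For Dusp1 the ratio to Fos did not overlap (1.37, 0.82 and 0.64 in WT, 0.544 and 0.543 in Ins2-AKITA mice), but the ratio to Pecam1 did (0.36, 0.24 and 0.33 in WT, 0.20 and 0.32 in Ins2-AKITA mice). The ratio of Fosb to Fos overlapped, with 0.20, 0.13 and 0.083 over the WT mice, compared with 0.16 and 0.077 for Ins2-AKITA.

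The paralogs of Zfp36, which bind the same element, were set beside it after the values had been seen. Zfp36l1 had 13.4, 20.6 and 19.8 FPKM in the WT mice against 12.9 and 12.7 in those with Ins2-AKITA (with a log2 fold change of -0.43, adjusted p = 0.90 from limma). Zfp36l2 had 26.6, 35.4 and 24.8 FPKM over the WT mice, compared with 28.1 and 35.0 for Ins2-AKITA (with a log2 fold change of 0.13). Zfp36l1 did not overlap, by a small margin, whereas Zfp36l2 did. Zfp36l2 exceeded Zfp36 in 5 of 5 mice, and Zfp36l1 in 4 of 5, WT replicate 1 being the exception.

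The position of the 4 genes depended in part on scaling. After quantile normalization, median-ratio scaling or scaling to protein-coding genes, Zfp36, Dusp1 and Junb kept both Ins2-AKITA values below all WT values, and Jun did not. Atf3 joined them under the last of these. Rescaling to a common FPKM sum (TPM) left 0 of the 10 genes in that position, and 0.632% of all genes tested, and under it the median over all genes moved to 1.07. Under it Zfp36 was at 0.0017.

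Other immediate early transcription factors mostly had negative log2 fold changes too. Of 17 such genes, all tested, 16 had a negative log2 fold change, with a median of -0.52, and 9 had both Ins2-AKITA values below all WT values (10.3% of all genes tested). None passed the adjusted threshold in limma (smallest adjusted p = 0.58), and 6 had an unadjusted p under 0.05 (4.46% of all genes tested). Klf2, a flow-responsive factor of endothelium, had 26.4, 26.6 and 30.1 FPKM in the WT mice against 8.205 and 12.004 in those with Ins2-AKITA (with a log2 fold change of -1.39, standard error 0.24). Cebpd, a factor of acute inflammatory and glucocorticoid responses, had 22.4, 6.34 and 4.78 FPKM over the WT mice, compared with 0.93 and 3.26 for Ins2-AKITA, so that WT replicate 1 alone was high. At the other end, the nuclear receptor gene Nr4a2 had 11.98, 15.6 and 22.8 FPKM in the WT mice against 14.7 and 26.8 in those with Ins2-AKITA (with a log2 fold change of 0.28). Klf10, a TGF-beta inducible factor, was at -0.14.

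Among 12 further AP-1 genes and partners, 10 were tested, 7 had a negative and 3 a positive log2 fold change, and the median was -0.37. Fosl1 was listed at 0 in every mouse. Fosl2, a further FOS relative, had 13.1, 9.82 and 13.3 FPKM over the WT mice, compared with 5.51 and 7.59 for Ins2-AKITA. Fosl2 was the one gene among the 10 tested with both values below all WT values (10.3% of all genes tested). Maff, a small MAF protein, had 17.1, 5.41 and 3.53 FPKM in the WT mice against 0.53 and 6.03 in those with Ins2-AKITA, with overlap. Atf2 and Atf7, CREB-type partners of JUN that are not known for rapid induction, were at 0.25 and 0.03. None of the 10 passed the adjusted threshold in limma, and 1 had an unadjusted p under 0.05 (4.46% of all genes tested).

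Of 31 other immediate early effectors, all tested, 26 had a negative log2 fold change, and the median was -0.27. Of the 31, 9 had both Ins2-AKITA values below all WT values (10.3% of all genes tested). None passed the adjusted threshold in limma (smallest adjusted p = 0.90), and 3 had an unadjusted p under 0.05 (4.46% of all genes tested). Per1, a clock gene also induced by glucocorticoids and cyclic AMP, had 74.7, 37.8 and 33.6 FPKM over the WT mice, compared with 15.5 and 19.4 for Ins2-AKITA (with a log2 fold change of -1.34, standard error 0.37). Ctgf, a matricellular protein, had 37.6, 9.41 and 7.57 FPKM in the WT mice against 4.91 and 6.45 in those with Ins2-AKITA, with WT replicate 1 far above the rest. Trib1, a pseudokinase, was at 0.11, and Zfp36l2 at 0.13. Sik1, a kinase of this list, is named as well because the authors' own comparison with Cufflinks called it lower in Ins2-AKITA mice. It had 25.6, 7.78 and 15.6 FPKM in the WT mice against 5.79 and 6.71 in those with Ins2-AKITA. Its log2 fold change was -1.12 (adjusted p = 0.90 from limma).

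**Figure D4:**
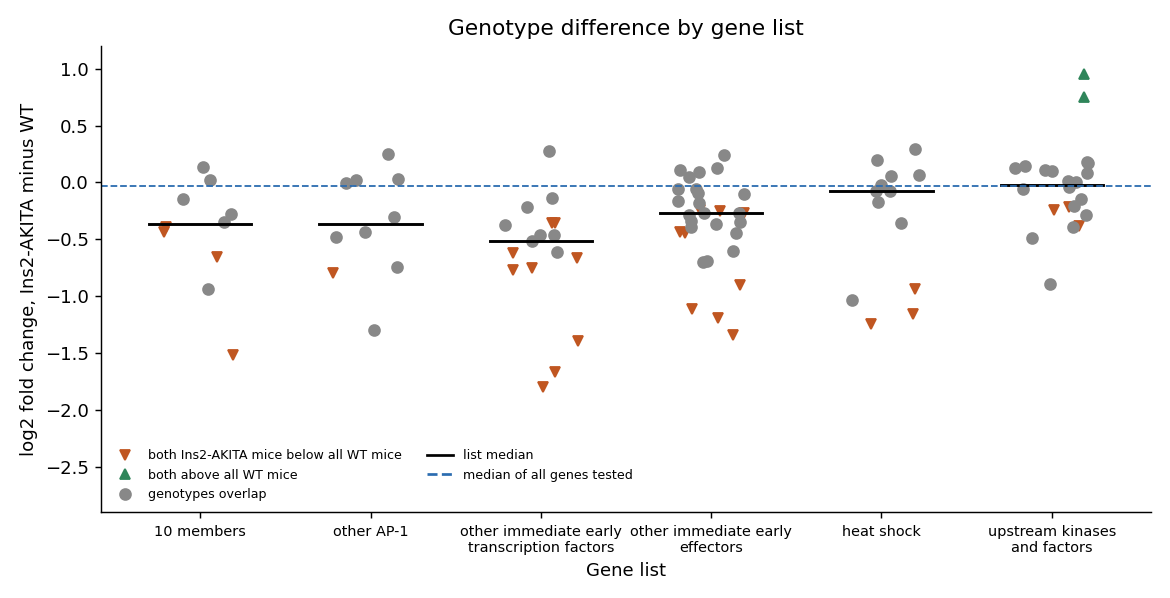
Log2 fold change (Ins2-AKITA minus WT, y axis) of every tested gene in 6 lists (x axis), with the list median as a black line and the median of all genes tested as a dashed line; triangles are genes whose genotypes do not overlap. The median is -0.37 for the 10 genes, -0.52 for other immediate early transcription factors and -0.02 for the kinases and factors upstream of them.

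For the genes upstream of the response, signs were evenly split. The 22 kinases and factors that start it, all tested, had 11 negative and 11 positive log2 fold changes, with a median of -0.02. Of the 22, 3 had both Ins2-AKITA values below all WT values (10.3% of all genes tested) and 2 had both above (9.24%). None passed the adjusted threshold in limma, and 2 had an unadjusted p under 0.05 (4.46% of all genes tested). Creb1, the factor of the cyclic AMP response element, had 12.2, 6.95 and 13.5 FPKM over the WT mice, compared with 25.2 and 18.1 for Ins2-AKITA (with a log2 fold change of 0.96, standard error 0.34). Its relative Atf1 had 19.1, 19.4 and 19.8 FPKM in the WT mice against 47.2 and 23.5 in those with Ins2-AKITA. The S6 kinase genes Rps6ka1 and Rps6ka3, whose products act below ERK, were at -0.89 and -0.49, both with overlapping genotypes.

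Heat shock genes, a further group that cellular stress induces, were looked at as well. Of 13, all tested, 9 had a negative and 4 a positive log2 fold change, with a median of -0.08. In 3 of them both Ins2-AKITA values lay below all WT values (10.3% of all genes tested), and in 0 both lay above (9.24%). Hspb1, a small heat shock protein of vessel wall muscle and endothelium, had 39.4, 26.6 and 57.5 FPKM over the WT mice, compared with 23.1 and 12.6 for Ins2-AKITA (with a log2 fold change of -1.15, adjusted p = 0.90 from limma). Hspa1b was at -1.04, with reads that may be shared with its near-identical copy Hspa1a. The mitochondrial chaperonin genes Hspd1 and Hspe1 were at 0.29 and 0.20. None of the 13 passed the adjusted threshold in limma, and 2 had an unadjusted p under 0.05 (4.46% of all genes tested).

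Markers of the cell types in the fragments also differed between the mice. Summed FPKM of 10 endothelial markers was 667, 896 and 518 in the WT mice against 540 and 443 in those with Ins2-AKITA, and 9 of the 10 had a negative log2 fold change. Summed FPKM of 5 smooth muscle markers was 242, 285 and 258 over the WT mice, compared with 205 and 154 for Ins2-AKITA, and of 8 pericyte markers 246, 264 and 211 in the WT mice against 237 and 183 in those with Ins2-AKITA. Both Ins2-AKITA values lay below all WT values for 4 endothelial, 4 smooth muscle and 1 pericyte marker (10.3% of all genes tested). In these lists, both lay above for 0 markers (9.24%). Median log2 fold changes were -0.43 for endothelial, -0.61 for smooth muscle and -0.31 for pericyte markers. The sum of the 10 immediate early genes was 188, 213 and 215 FPKM over the WT mice, compared with 151 and 160 for Ins2-AKITA.

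Astrocyte markers had positive log2 fold changes. Summed FPKM of 7 astrocyte markers was 2118, 2543 and 2927 in the WT mice against 3338 and 3933 in those with Ins2-AKITA, with a positive value for 7 of 7. Summed FPKM of 9 microglia markers ranged from 175 to 243 in WT and from 187 to 212 in Ins2-AKITA mice. It ranged from 1926 to 2613 in WT and from 2096 to 2302 in Ins2-AKITA mice for 6 oligodendrocyte markers. For 8 neuron markers it ranged from 1598 to 1711 in WT and from 1714 to 2110 in Ins2-AKITA mice, and for 5 erythroid markers from 35.1 to 67.7 in WT and from 25.1 to 32.4 in Ins2-AKITA mice. No marker of these lists was at 0 in all mice. None passed the adjusted threshold in limma. Of these markers, 2 endothelial, 3 smooth muscle, 1 astrocyte and 1 erythroid marker had an unadjusted p under 0.05 (4.46% of all genes tested). The part of cell composition in the values of the immediate early genes was not tested.

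**Figure D5:**
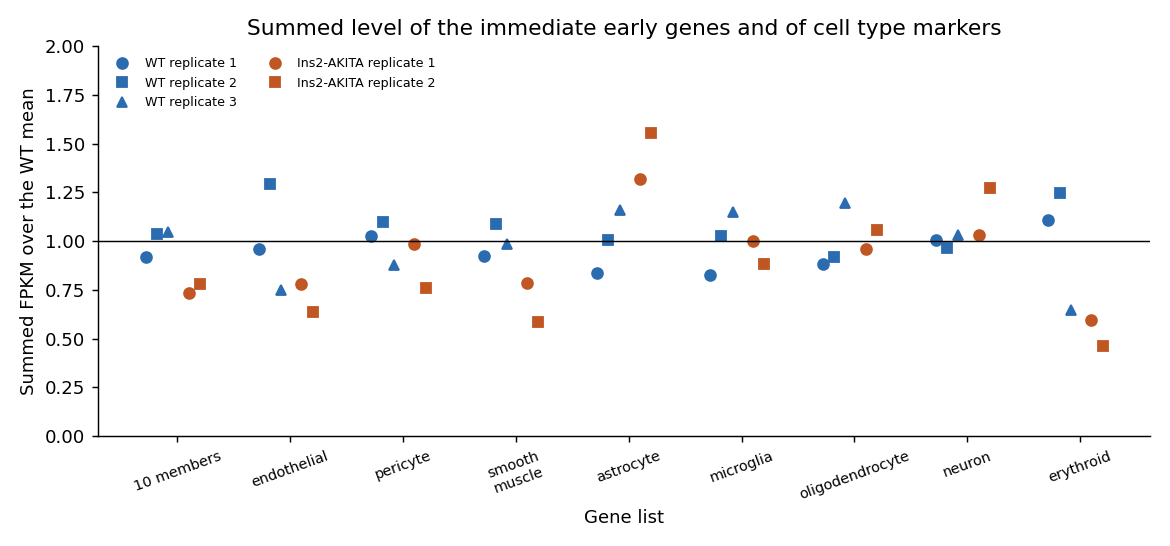
Summed FPKM in each mouse divided by the WT mean (y axis, from 0) for the 10 immediate early genes and 8 lists of cell type markers (x axis), with WT in blue and Ins2-AKITA in orange. The sum of the 10 genes is 0.74 and 0.78 of the WT mean in the Ins2-AKITA mice, beside 0.78 and 0.64 for endothelial, 0.78 and 0.59 for smooth muscle and 1.32 and 1.56 for astrocyte markers. Endothelial markers overlap between genotypes, with 0.75 in WT replicate 3. Pericyte markers are at 0.99 and 0.76 and erythroid markers at 0.60 and 0.46 in the Ins2-AKITA mice.

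Genes with the profile most like the 10 genes were found by the root mean square difference, over the 5 mice, between the centred log2(FPKM + 1) of a gene and the median centred profile of the 10. Among 11263 genes with a mean FPKM of at least 5, the nearest outside the 10 were 2310044H10Rik (0.030), Nutf2 (0.036), Esf1 (0.037), Robo1 (0.040) and Telo2 (0.043). The 10 genes themselves lay farther from their own median profile, from 0.20 for Junb and Jun to 0.62 for Atf3 and 0.63 for Zfp36. The share of the 11263 genes nearer to that profile was 10.01% for Junb and 10.3% for Jun, between 27.4% and 55.1% for Egr1, Fosb, Fos, Ier2, Dusp1 and Btg2, 88.4% for Atf3 and 88.7% for Zfp36.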

How the data were processed

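Sequenced RNA came from microvascular fragments of 5 brains (3 WT, 2 Ins2-AKITA), with 1 library per mouse. Per the submitters' processing notes and the methods, the authors removed rRNA and tRNA, made libraries with a strand-keeping low-input kit, mapped reads to NCBIM37 with TopHat2 2.0.4, removed duplicates with Picard 1.92 and used Cufflinks 2.2.1. They deposited FPKM per Ensembl gene and mouse. The program that made these values and its strand setting are not given in the sources used here.

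Of 37982 identifiers, 37197 matched the GENCODE vM1 annotation of NCBIM37, and rows were summed into 34615 symbols. The 16286 symbols averaging 1 FPKM or more were tested on log2(FPKM + 1) with limma 3.58.1 in R 4.3.3 (eBayes with a trend, genotype alone, two-sided, adjusted by Benjamini-Hochberg). This scale understates fold changes of low genes. Exact permutation tests used all 10 splits of the mice. The fit was run on data simulated with normally distributed noise and no counting error, so this check does not cover genes with few fragments. Other steps used Python 3.11.15.

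Fragment numbers were estimated from FPKM multiplied by the exon length of genes with 1 transcript longer than 500 nt, shortened by 220 to 226 nt per mouse; between 98.1% and 99.0% of low values then lay within 0.1 of a whole number. For genes with several transcripts the estimate is approximate.

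The genes and lists were chosen with earlier results of these data known. Besides the 10 genes, the 2 lowest and 2 highest genes by log2 fold change with a mean FPKM of at least 5 are named from each of the 5 pathway lists. Marker lists of cell types are given as sums and counts. Promoters are from RefSeq (GRCm38.p6), and 3′ UTRs from GENCODE vM1.

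The following were tried in turn as alternatives: TPM, quantile normalization, median-ratio scaling, scaling to the protein-coding sum, 0.1 as pseudocount, no filter on low values, a filter at 5 FPKM, a constant prior variance, the replicate number as a block, and each mouse left out.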

Additional observations from a re-analysis of the deposited data

How the results depend on the processing

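None of the 10 genes passed an adjusted p of 0.05 in limma under any alternative (smallest adjusted p = 0.27). Of 138 log2 fold changes of single genes under alternatives, 122 kept their direction and 16 did not. With TPM these became positive, as the median of all genes shifted from -0.03 to 1.07: Zfp36 0.0017, Jun 1.19, Junb 1.09, Egr1 1.04, Ier2 0.85, Dusp1 0.85 and Fosb 0.65. The median of the 10 genes was 0.95 with TPM and -0.41 with scaling to the protein-coding sum, under which Fos was at -0.024. The number of the 10 genes with both Ins2-AKITA values below all WT values, a count added after the values had been seen, was 0 with TPM (0.632% of all genes tested), 4 with scaling to the protein-coding sum (12.1%), 3 with median-ratio scaling (10.03%) and 3 with quantile normalization (8.82%).

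With one mouse left out, Fos ranged from -0.24 to 0.28, Fosb from -0.34 to 0.048, Ier2 from -0.66 to 0.11, Btg2 from -0.10 to 0.38 and Zfp36 from -1.82 to -1.22. Direction turned without WT replicate 1 (Fos, Fosb, Btg2), WT replicate 2 (Fos) and Ins2-AKITA replicate 2 (Fos, Fosb, Ier2, Btg2). Jun ranged from -0.55 to -0.22, Junb from -0.59 to -0.27, Egr1 from -0.58 to -0.13, Dusp1 from -0.91 to -0.41 and Atf3 from -1.26 to -0.47. The median of the 10 genes ranged from -0.45 to -0.22, and the number with Ins2-AKITA values below all WT values from 4 to 7. That number can only stay or grow when a mouse is left out, and the share over all genes tested ranged from 14.5% to 27.9%. Leaving out an Ins2-AKITA mouse assumes that the lone mouse varies like the WT mice.

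Of all genes, 0 were called higher and 4 lower. These numbers became 58 and 30 with TPM and 1 and 2 with a constant prior, and the number lower was 2 with no filter and with the filter at 5. With one mouse left out they ranged from 0 to 10 and from 1 to 6. At an unadjusted p under 0.05 there were 249 higher and 477 lower, and with TPM 1808 higher and 105 lower.

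With the replicate number as a block, Zfp36 was at -1.57 (adjusted p = 0.60 from limma), 0 genes were higher and 5 lower, and no call among the 10 genes changed. Replicate number 3 exists in WT alone, so the block sets that mouse aside. The log2 fold changes of the 10 genes were the same as without WT replicate 3. Labels do not say that the numbers pair the mice. Deviations from the genotype means correlated across genes by 0.051 between the mice numbered 1 and by -0.034 between those numbered 2. For WT replicate 3 the value was -0.086 with Ins2-AKITA replicate 1 and 0.086 with Ins2-AKITA replicate 2. The deviations of the 2 Ins2-AKITA mice from their own mean mirror each other, so these values cannot decide whether the mice are paired. A depth of 4 and 8 fragments in the Ins2-AKITA mice limits Zfp36, and 1 to 4 fragments in 4 of the mice limit Atf3.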

Other observations

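Single mice stood apart within the stress gene lists. WT replicate 3 had the highest value of the 5 mice for 11 of 13 heat shock genes, whereas it was the highest for 11.1% of all genes tested. Hspa8, a constitutive HSP70 chaperone, had 440 FPKM there against 277 to 360 FPKM in the other mice, and Hsph1, its nucleotide exchange partner, had 50.9 FPKM against 23.3 to 33.4 FPKM. The same mouse had the highest Jun and Atf3 values of the immediate early genes. These genes were picked after their values had been seen.

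WT replicate 1 had the highest value for 16 of the 31 other immediate early effectors, against 28.4% of all genes tested. Sgk1, a kinase induced by glucocorticoids, had 79.0 FPKM there against 16.4 to 45.7 FPKM in the other mice, and Gadd45g, a growth arrest gene, had 36.5 FPKM against 9.02 to 14.96 FPKM. It was also the mouse with the highest Zfp36 and Dusp1. Arc, an activity-induced gene of neurons, was high in WT replicate 3 instead, with 173 FPKM against 41.3 to 69.3 FPKM. Of the 10 immediate early genes, 5 had their lowest value in Ins2-AKITA replicate 1, 4 in Ins2-AKITA replicate 2 and 1 in WT replicate 1, against 17.0%, 23.2% and 24.3% of all genes tested.

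The genes whose profile over the 5 mice came nearest to that of Zfp36 alone were Apobec3, Gm9846, Trim23, Sh2d3c and Cxcr7, at a root mean square difference of 0.16 to 0.22 on the log2 scale. Apobec3, a cytidine deaminase of antiviral defence, had 11.1, 8.80 and 6.90 FPKM in WT and 2.06 and 3.25 FPKM in Ins2-AKITA mice. Cxcr7, a scavenging chemokine receptor found on endothelium, had 12.2, 5.07 and 8.03 FPKM in WT and 1.56 and 3.84 FPKM in Ins2-AKITA mice.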
